A study of Sus scrofa with 16 samples.

Results

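The voltage-gated and calcium release channels of the pig pituitary were described as 24 genes of the 25880 in the count table. They were the rows of the deposited comparison table, 11433 in all, whose symbol starts with KCN, CACN or SCN (without SCNM1) or names a ryanodine receptor or an inositol trisphosphate receptor, joined to the counts by gene identifier. The rule itself used symbols and no expression values, but all 11433 rows of that table passed the count filter used for testing here. Membership is therefore limited to genes expressed in these libraries. Other tables named a further 110 genes of these families, which were not members and enter a side comparison near the end. Among the members were 3 pore-forming and 3 auxiliary calcium channel subunits, 4 pore-forming and 3 auxiliary subunits of voltage-gated potassium channels, 2 inward rectifiers, 2 two-pore-domain potassium channels, 2 subunits of the epithelial sodium channel, 1 ryanodine receptor and 3 inositol trisphosphate receptors. The inward rectifiers, the two-pore-domain channels and the epithelial sodium channel lack a voltage sensor but share the symbols, so the label does not describe these 6 members. No pore-forming voltage-gated sodium channel and no calcium-activated potassium channel was among the members.

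Pituitary RNA came from 16 female pigs of the Puławska breed, a native Polish breed, with no allele or drug in any group. The low feed conversion group (LFC, replicates 1 to 8) needed less feed per unit of gain than the high feed conversion group (HFC, replicates 9 to 16), with 8 gilts in each. The gilts were unrelated, came from different farms and were housed and fed alike at 1 test station. Age is 3 months in the labels and higher in the methods of the study. Whole glands were homogenised, so fewer cells of a type and less RNA per cell cannot be told apart in any value below.

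Endocrine cells of the pituitary fire action potentials. Calcium entering through voltage-gated channels drives the release of hormone granules, and potassium channels end the spike and set the resting potential. Hormones that act through phospholipase C raise inositol trisphosphate, which opens receptors on the endoplasmic reticulum and releases stored calcium. Ryanodine receptors release stored calcium in response to calcium itself.

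Libraries held between 10.97 and 23.06 M counts, and no pair of libraries of the same group agreed within sampling noise. Markers of somatotrophs, lactotrophs, gonadotrophs and corticotrophs (without POMC, not analysed here) were present in every library. Libraries stood apart in 3 ways. Replicate 14 of HFC held skeletal muscle transcripts, with 3 of the 4 listed markers found by symbol and a summed level of 29100 CPM (counts scaled to the library total) against 3.364 to 12.44 in the other 15. Replicates 5 of LFC, 13 of HFC and 14 of HFC lay low in long genes, and HFC replicate 15 did so by a smaller median shift. Replicates 16 and 11 of HFC were highest in PAX7, the factor that defines melanotrophs of the intermediate lobe, at 333 and 30.9 CPM. Where leaving out one of these libraries other than HFC replicate 15 changed an estimate markedly, its value without that library is given. LFC replicate 5 and HFC replicate 14 were left out together because the rule names this pair.

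No member passed the test between the groups. A call needed a fold change of 1.3 or more and a Benjamini-Hochberg adjusted p from edgeR's quasi-likelihood test of 0.05 or less, and 0 of 24 members met both, beside 0 of 14319 genes tested (0%). The smallest adjusted p of a member was 0.612 (edgeR). DESeq2 and limma-voom also called 0 members, and the share of all genes that they called was not counted. At an unadjusted p under 0.05 lay 2 members (8.33%), KCNJ2 and KCNK5, beside 834 of all genes tested (5.82%). Both were higher in HFC, where 615 of all genes (4.29%) lay, and no member was among the 219 genes lower in HFC (1.53%). A share of 2 in 24 members is near the background and is not a result about the channels. Without LFC replicate 5 and HFC replicate 14 the same count of 2 members stood beside 1182 of 14359 genes (8.23%), and again 0 genes were called (0%). By sign, 10 members had a higher and 14 a lower estimate in HFC, with a median log2 fold change of -0.09 beside -0.01 over all genes tested. Without the pair the medians were -0.11 and 0.03. Levels below are log2 CPM with TMM scaling and a prior count of 2, and folds are HFC over LFC from edgeR. Levels are not compared between genes, since transcript lengths were not used here.

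**Figure D1:**
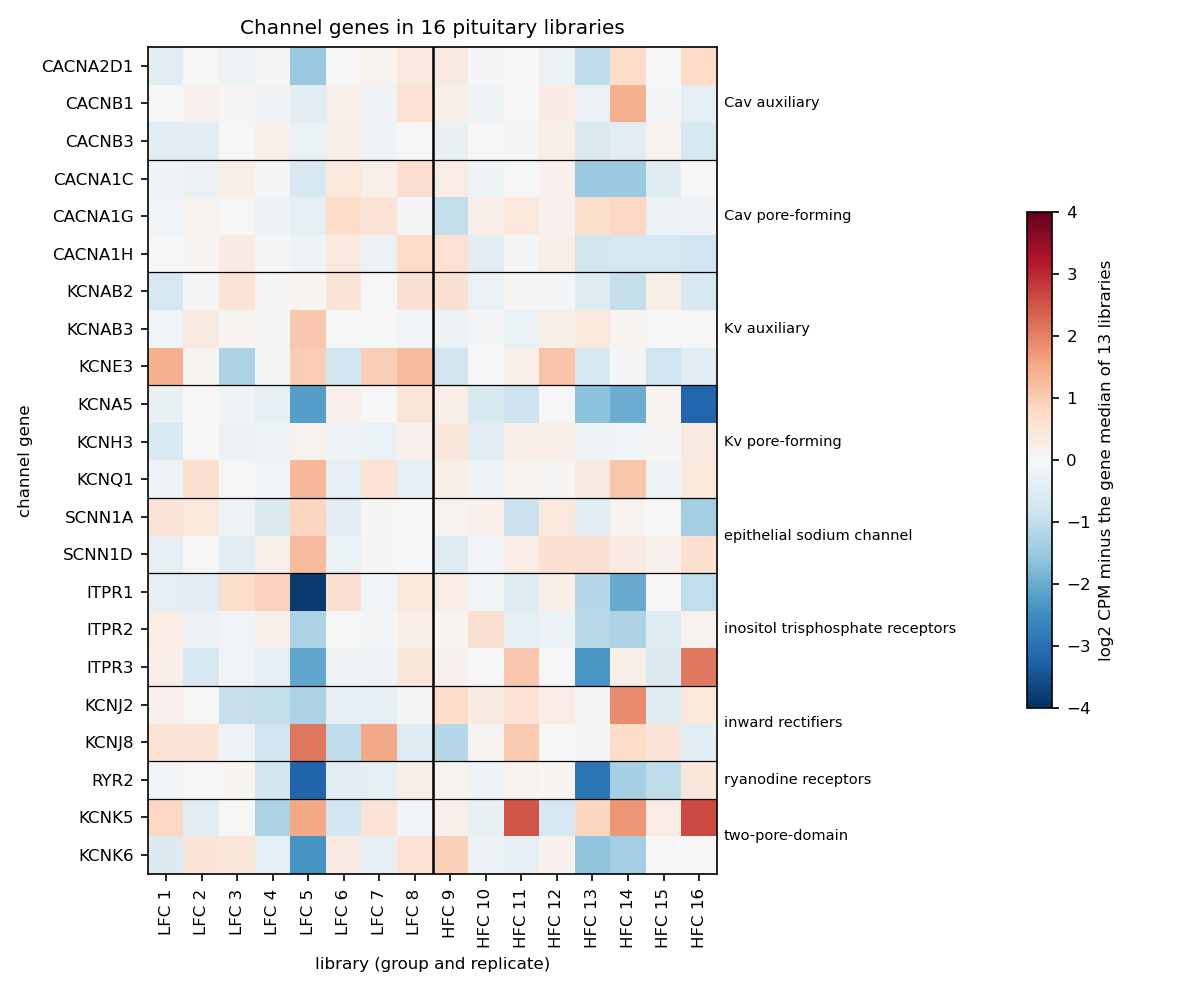
Each row is a channel gene and each column a library, LFC left of the line and HFC right of it. The colour is log2 CPM minus the gene's median over the 13 libraries other than LFC 5, HFC 13 and HFC 14, and the darkest cells fall in LFC 5 for ITPR1 (3.66 log2 CPM) and RYR2 (1.37) and in HFC 16 for KCNA5 (1.34).

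Among the pore-forming calcium channel subunits, CACNA1H had the estimate with the most support and did not pass. CACNA1H encodes a T-type channel that opens at low voltage and helps to start spikes (chr3:40633235-40694815, Sscrofa11.1). Its level ran from 7.42 over a median of 7.70 to 8.44 log2 CPM in LFC and from 6.85 over 7.10 to 8.23 in HFC. Of the 8 HFC libraries 5 lay below the lowest LFC library, while replicates 9, 11 and 12 of HFC sat among the LFC values. The log2 fold change was -0.42 with an SE of 0.21 (edgeR adjusted p = 0.894), and an exact two-sided permutation test over all assignments of 8 of the 16 libraries gave p = 0.0511. It was -0.41 without LFC replicate 5 and HFC replicate 14.

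CACNA1C, the pore of an L-type channel that carries calcium for secretion (chr5:69271053-69448130), ran from 3.75 over 4.45 to 5.04 log2 CPM in LFC and from 2.89 over 4.30 to 4.68 in HFC. Its lowest values were in HFC replicates 14 and 13, at 2.89 and 2.92, and LFC replicate 5 held the lowest of LFC. The log2 fold change was -0.36 with an SE of 0.26 (edgeR adjusted p = 0.9999), and -0.20 without LFC replicate 5 and HFC replicates 13 and 14. CACNA1G, a further T-type pore, was counted between 9 and 53 times a library and had a log2 fold change of 0.08 with an SE of 0.27. The estimate was -0.10 without the pair of libraries, so it has no stable sign.

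The auxiliary subunits of these channels traffic the pore and shape its gating. CACNB3, a beta subunit (chr5:14874001-14891556), was among the steadiest members, from 5.60 to 6.49 log2 CPM over all 16 libraries, and its log2 fold change was -0.06 with an SE of 0.15. CACNB1, the beta subunit known from skeletal muscle as well as from other tissues (chr12:23037816-23063923), ran from 4.81 over 5.30 to 5.86 log2 CPM in LFC and from 4.89 over 5.23 to 6.68 in HFC. The highest value belonged to HFC replicate 14, and the other 7 HFC libraries reached at most 5.61. The log2 fold change of 0.19 became -0.09 without HFC replicate 14 (edgeR unadjusted p = 0.566) and -0.15 without it and LFC replicate 5. CACNA2D1, an alpha-2-delta subunit (chr9:97781051-98266969), ran from 3.91 over 5.40 to 5.81 log2 CPM in LFC and from 4.40 over 5.42 to 6.19 in HFC, with a log2 fold change of 0.27 and an SE of 0.25. It fell to 0.05 when the pair was left out.

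The skeletal muscle markers of HFC replicate 14 stood far above the other libraries. ACTA1, skeletal alpha-actin, was at 17500 CPM in HFC replicate 14 and at most 9.26 in the other libraries, CKM, muscle creatine kinase, at 3980 against at most 2.95, and TNNT3, fast troponin T, at 7610 against at most 1.91. TNNT3 was at 0 in 3 of the other libraries. Channel genes outside the rule moved there too: CACNA1S, the pore of the skeletal muscle calcium channel, reached 146 CPM against at most 0.191 elsewhere, CACNG1, its gamma subunit, 81.5 against 0.189, and SCN4A, the skeletal muscle sodium channel, 51.1 against 1.07. These 3 genes were named after their values were seen. Of the 24 members, 4 had their highest value in HFC replicate 14 (16.7%, beside 7.21% of all genes tested). The part of muscle RNA in the levels of CACNB1 and KCNJ2 was not tested, beyond the values without that library.

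**Figure D2:**
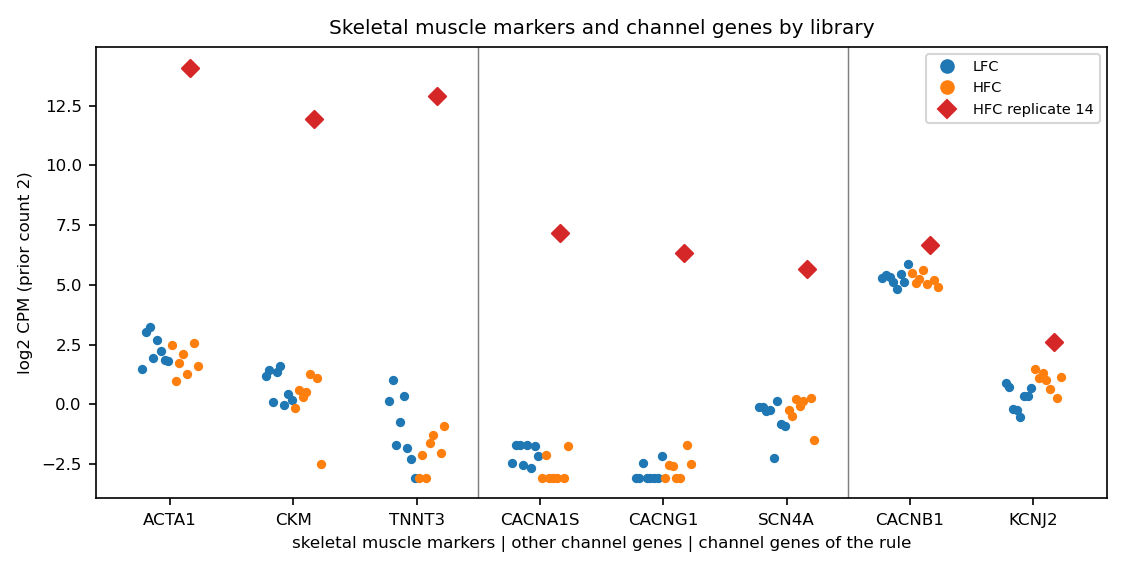
Log2 CPM of 3 skeletal muscle markers, 3 channel genes outside the rule and 2 members, with 1 point per library, LFC in blue, HFC in orange and HFC replicate 14 as a red diamond. CACNB1 is at 6.68 and KCNJ2 at 2.60 in that library, and both are lower everywhere else.

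KCNJ2 had the smallest p of the members. It encodes a strong inward rectifier that holds the resting potential (chr12:10351715-10362244). Counts were few, 6 to 58 a library. LFC libraries ran from -0.54 over 0.34 to 0.88 log2 CPM and HFC libraries from 0.25 over 1.12 to 2.60. Of the 8 HFC libraries 7 were above the LFC mean and 6 above the highest LFC library, while HFC replicate 15 at 0.25 and HFC replicate 13 at 0.65 sat within the LFC range. On the linear scale the LFC mean was 1.14 CPM with an SD of 0.421, and the HFC mean 2.44 CPM with an SD of 1.501, over 8 libraries each. In the edgeR fit the log2 fold change was 1.08 with an SE of 0.33 (edgeR unadjusted p = 0.00448, adjusted p = 0.612). The exact two-sided permutation test gave p = 0.00528 for a difference of 0.94 in mean log2 CPM, with an adjusted p of 0.996 over all genes tested. HFC replicate 14 held the highest value, and leaving it out gave the lowest estimate of the 16 fits that each left out a library, 0.76. In all 16 of those fits the unadjusted edgeR p stayed under 0.05, the largest being 0.0120. Without LFC replicate 5 and HFC replicate 14 the log2 fold change was 0.67, with an edgeR unadjusted p of 0.0183 and an adjusted p of 0.572.

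KCNJ8, an inward rectifier of ATP-sensitive channels found in vascular mural cells (chr5:51695974-51707039), ran from -0.36 over 0.81 to 2.76 log2 CPM in LFC and from -0.49 over 0.70 to 1.68 in HFC. The top value was in LFC replicate 5, and the groups overlapped over nearly the whole range. Its log2 fold change of -0.45 with an SE of 0.47 shrank to -0.04 without LFC replicate 5.

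The two-pore-domain channels carry background potassium current. KCNK5, an alkaline-activated member of that family (chr7:34615259-34656739), ran from -0.32 over 0.91 to 2.52 log2 CPM in LFC and from 0.28 over 1.53 to 3.60 in HFC. The HFC group was split: replicates 16, 11 and 14 were at 3.60, 3.47 and 2.74, above every LFC library, and the other 5 lay between 0.28 and 1.81. Between the groups the log2 fold change was 1.15 with an SE of 0.54 (edgeR unadjusted p = 0.0471, adjusted p = 0.850), and the exact two-sided permutation p was 0.139. With single libraries left out it was lowest at 0.82, when HFC replicate 16 was absent, and highest at 1.47, when LFC replicate 5 was. The unadjusted p was under 0.05 in 7 of the 16 fits. It was 1.41 without LFC replicate 5 and HFC replicate 14. KCNK6, of the same family (chr6:47238629-47246618), ran from -0.04 over 2.34 to 2.91 log2 CPM in LFC and from 0.73 over 2.21 to 3.29 in HFC, with its lowest values in LFC replicate 5, HFC replicate 13 and HFC replicate 14. By edgeR the log2 fold change was -0.12 with an SE of 0.39, and it moved to -0.27 without LFC replicate 5 and to 0.01 without HFC replicate 13.

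HFC replicates 16 and 11 were also the highest in PCSK2, RAX and COL25A1, markers of the intermediate and posterior lobes. PCSK2, the prohormone convertase of melanotrophs, was at 2600 CPM in replicate 16 and 299 in replicate 11, against at most 27.3 in LFC, and HFC replicates 14 and 15 followed at 175 and 126. OPRK1, the third melanotroph marker listed, did not share this order, at 2.17 CPM in replicate 16 and 4.26 in replicate 11 against 0.381 to 14.5 in LFC. The summed melanotroph list, with 3 of 3 markers found, ran from 2.855 to 41.13 CPM in LFC and from 8.682 to 2930 in HFC. RAX and COL25A1, listed as markers of the pituicytes of the posterior lobe, were at 33.9 and 46.4 CPM in replicate 16 and at 15.1 and 22.1 in replicate 11, against at most 2.47 and 3.01 in LFC. Libraries with a RAX count of 0 numbered 7, and 1 library had no PAX7. The summed list of pituicyte and astroglial markers, with 7 of 7 found, ran from 27.47 to 90.49 CPM in LFC and from 28.05 to 303.5 in HFC. Its highest sum was in HFC replicate 14, replicate 16 followed at 243.6 and replicate 11 at 84.73 lay inside the LFC range. GFAP, the astroglial filament of that list, was at 6.38 CPM in replicate 11, below the LFC maximum of 52.0. Whether the share of these lobes in each sample bears on KCNK5 or ITPR3 was not tested.

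**Figure D3:**
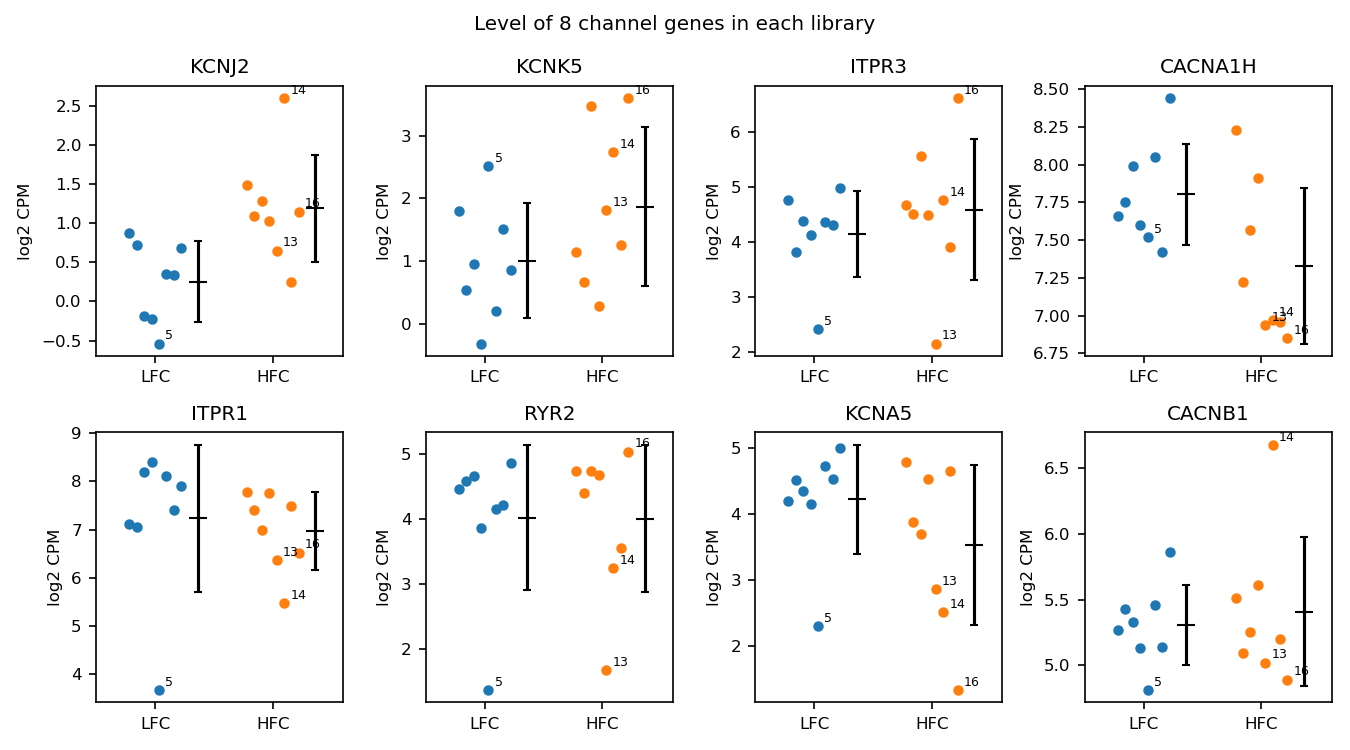
Log2 CPM of 8 members in each library, by group, with the mean and SD (n = 8) beside the points. The numbers mark LFC replicate 5 and HFC replicates 13, 14 and 16. KCNJ2 has 6 of 8 HFC points above the highest LFC point, and CACNB1 has 1.

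Of the pore-forming voltage-gated potassium channel subunits, KCNA5, a delayed rectifier (chr5:65440133-65441935), ran from 2.31 over 4.43 to 5.0 log2 CPM in LFC and from 1.34 over 3.78 to 4.78 in HFC. Among LFC libraries replicate 5 stood alone at 2.31, and among HFC libraries replicates 16, 14 and 13 were at 1.34, 2.52 and 2.86. HFC over LFC, the log2 fold change was -0.49 with an SE of 0.42 (edgeR adjusted p = 0.9999). It was -0.63 without LFC replicate 5 and -0.32 without HFC replicate 16.

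KCNQ1, a slowly activating channel that also works with KCNE subunits (chr2:1675304-1989503), ran from 2.54 over 2.88 to 4.27 log2 CPM in LFC and from 2.74 over 3.10 to 4.03 in HFC. In contrast to KCNA5, its highest values were in LFC replicate 5 and HFC replicate 14. In the edgeR fit the log2 fold change was -0.03 with an SE of 0.26 and lay between -0.19 and 0.20 when single libraries were left out. KCNH3, an ether-à-go-go type channel (chr5:15495251-15517458), varied least of the members, with an SD of 0.29 log2 CPM over the 16 libraries. It ran from 1.78 over 2.23 to 2.56 in LFC and from 1.97 over 2.55 to 2.82 in HFC, where 4 of 8 libraries were above the highest LFC library. Between the groups the log2 fold change was 0.24 with an SE of 0.17, and the exact two-sided permutation p was 0.120.

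The 3 auxiliary potassium channel subunits among the members all had estimates below 0 with all 16 libraries. Tested genes of this class outside the rule had estimates of both signs. KCNE3, a single-span subunit that alters KCNQ1 gating (chr9:8810703-8822341), had the lowest log2 fold change of the 24, -0.61 with an SE of 0.38 (edgeR adjusted p = 0.981). It ran from 1.68 over 3.44 to 4.33 log2 CPM in LFC and from 2.09 over 2.68 to 4.05 in HFC, and 7 of 8 HFC libraries lay below the LFC mean without leaving the LFC range. KCNAB2, a cytoplasmic beta subunit (chr6:66927922-67018183), ran from 3.98 over 4.68 to 5.26 log2 CPM in LFC and from 3.69 over 4.48 to 5.26 in HFC, with a log2 fold change of -0.29 and an SE of 0.22. KCNAB3, of the same kind (chr12:53171319-53180823), had -0.17 with an SE of 0.18, which became 0.00 without LFC replicate 5, the library with its highest value of 4.81 log2 CPM.

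The epithelial sodium channel subunits did not separate the groups. SCNN1A, the alpha subunit (chr5:64285015-64314819), ran from 5.36 over 5.93 to 6.78 log2 CPM in LFC and from 4.55 over 5.99 to 6.34 in HFC, with a log2 fold change of -0.27 and an SE of 0.25, and -0.13 without LFC replicate 5. SCNN1D, the delta subunit (chr6:63572019-63578776), was counted 7 to 20 times a library, with a log2 fold change of 0.18 and an SE of 0.29. It was highest in LFC replicate 5, and without that library the estimate was 0.44 (edgeR unadjusted p = 0.0762).

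Of the calcium release channels, ITPR1, RYR2 and ITPR3 had SDs of 1.19, 1.08 and 1.05 log2 CPM over the 16 libraries and ITPR2 one of 0.55, beside a median of 0.59 for the members. ITPR1, an inositol trisphosphate receptor (chr13:61067774-61397655), had the largest SD of the 24. LFC values ran from 3.66 over 7.66 to 8.41 log2 CPM and HFC values from 5.47 over 7.20 to 7.79. LFC replicate 5 stood alone, with 132 counts where the other LFC libraries held 2264 to 6769, and HFC replicates 14, 13 and 16 held the lowest HFC values, at 5.47, 6.37 and 6.52. By edgeR the log2 fold change was -0.50 with an SE of 0.45 (edgeR adjusted p = 0.9999), and -0.55 with an SE of 0.27 without LFC replicate 5 and HFC replicate 14 (edgeR unadjusted p = 0.0567). It was -0.68 without LFC replicate 5 alone (edgeR unadjusted p = 0.0440) and -0.37 without HFC replicate 14 alone. ITPR2 (chr5:46935923-47464125) ran from 4.03 over 5.20 to 5.56 log2 CPM in LFC and from 4.03 over 4.93 to 5.85 in HFC, with a log2 fold change of -0.17 and an SE of 0.25. Dropping LFC replicate 5 moved its estimate to -0.27, and dropping either replicate 13 or replicate 14 of HFC moved it to -0.07.

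ITPR3 (chr7:29835869-29902160) differed from the other receptors in which libraries were high. LFC values ran from 2.42 over 4.33 to 4.98 log2 CPM and HFC values from 2.16 over 4.59 to 6.61. HFC replicates 16 and 11, at 6.61 and 5.57, were above every LFC library, as they were for KCNK5, and HFC replicate 13 was the lowest of the 16. HFC over LFC, the log2 fold change was 0.75 with an SE of 0.46 (edgeR adjusted p = 0.968) and 0.27 without HFC replicate 16. Without HFC replicate 13 it was 0.91 (edgeR unadjusted p = 0.0323). The study placed ITPR3 in a pathway list of its differentially expressed genes, called with DESeq2 at the same thresholds. Here ITPR3 was not called, and DESeq2 gave an adjusted p of 0.865. The study's list was drawn from these libraries, so the inclusion of ITPR3 is not independent evidence.

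RYR2, the ryanodine receptor of heart and brain (chr14:53653486-54194883), had an estimate near 0 with a wide error. LFC values ran from 1.37 over 4.34 to 4.86 log2 CPM and HFC values from 1.68 over 4.53 to 5.03. LFC replicate 5 and HFC replicate 13 were at 1.37 and 1.68, with 26 and 32 counts, and HFC replicate 14 followed at 3.24. In the edgeR fit the log2 fold change was 0.03 with an SE of 0.42 and lay between -0.14 and 0.19 when single libraries were left out. RYR2 was also in the study's qPCR panel, which covered both of its breeds. The study's pathway lists name RYR2 for its other breed, Złotnicka White, and not for Puławska.

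**Figure D4:**
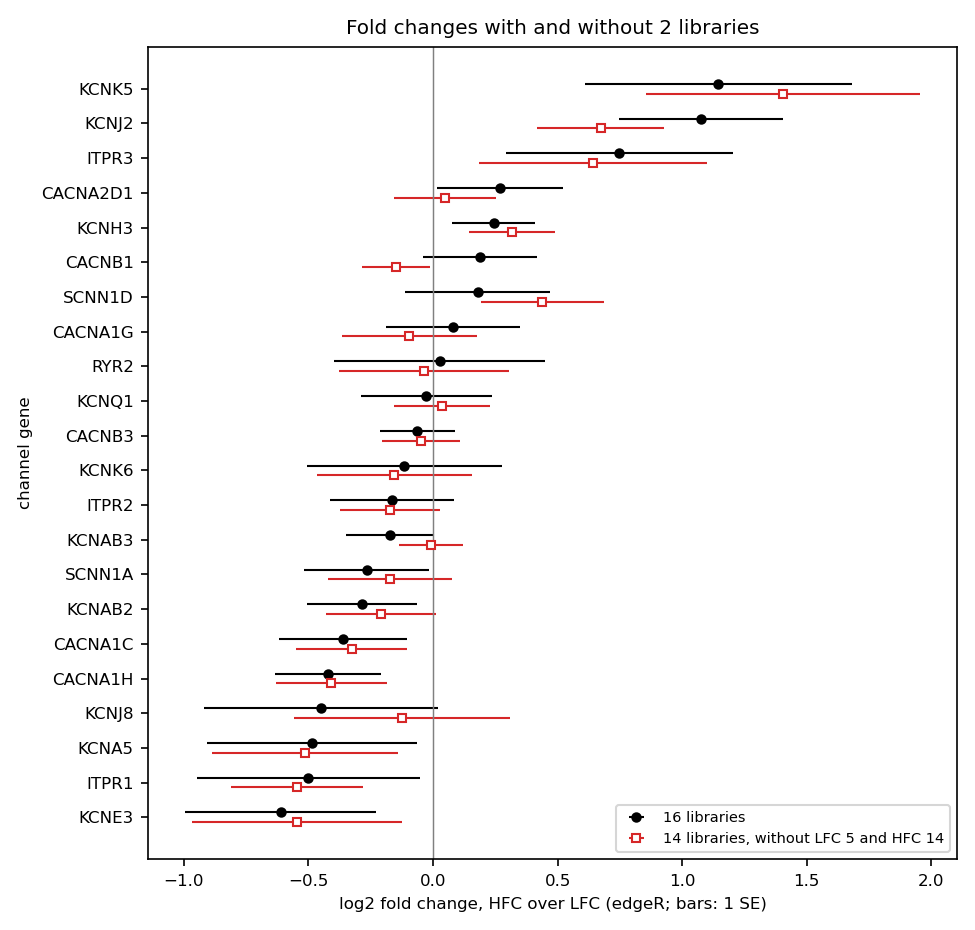
Log2 fold change of HFC over LFC for 22 members with bars of 1 SE, from all 16 libraries (black circles) and without LFC replicate 5 and HFC replicate 14 (open red squares). CACNB1 moves from 0.19 to -0.15, while KCNJ2 and KCNK5 stay above 0.

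The mean of log2 CPM over the members of a class described the classes without a test. It was higher in HFC by 0.38 for the inward rectifiers and by 0.39 for the two-pore-domain channels, and each of these classes holds a member with an unadjusted p under 0.05. The HFC minus LFC difference was -0.31 for the auxiliary potassium subunits, -0.29 for the pore-forming calcium subunits and -0.23 for the pore-forming potassium subunits. The inositol trisphosphate receptors (-0.01), RYR2 (-0.02), the epithelial sodium channel (-0.05) and the auxiliary calcium subunits (0.09) were nearer 0 with all libraries. That order rested on single libraries. Without LFC replicate 5 the differences were -0.32 for the inositol trisphosphate receptors and -0.40 for RYR2. They were 0.09 for the epithelial sodium channel and 0.00 for the auxiliary calcium subunits. For the auxiliary potassium, pore-forming calcium and pore-forming potassium subunits they were -0.24, -0.36 and -0.33. The inward rectifiers and the two-pore-domain channels were then at 0.46 and 0.34. Without HFC replicate 13 instead, the inositol trisphosphate receptors were at 0.17 and RYR2 at 0.31. With LFC replicate 5 and HFC replicates 13 and 14 all left out they were at 0.02 and 0.12. For the inositol trisphosphate receptors the LFC mean was 5.506 with an SD of 0.90 and the HFC mean 5.496 with an SD of 0.67, over 8 libraries each. By sign, 19 of the 24 members kept theirs without LFC replicate 5 and HFC replicate 14, and 5 did not. With all libraries, 22 of 24 estimates lay within 2 SE of 0.

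The members varied more between libraries than genes did in the median. The median SD over the 16 libraries was 0.59 log2 CPM for the members beside 0.43 for all genes tested, and 0.43 beside 0.29 in the 13 libraries without LFC replicate 5, HFC replicate 13 and HFC replicate 14. The SD fell by more than 1.5 times without these 3 in 10 members (41.7%, beside 36.5% of all genes tested). ITPR1 went from 1.19 to 0.55 and RYR2 from 1.08 to 0.41, whereas KCNK5 stayed at 1.16 and 1.17.

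These 3 libraries held the 3 lowest values of the 16 for 6 of 24 members (25.0%), among them CACNA1C, ITPR1, ITPR2, KCNK6 and RYR2, beside 13.6% of all genes tested. LFC replicate 5 alone was the lowest of the 16 in 8 members (33.3%, beside 29.1% of all genes). Many channel genes are long, and the low values lay mostly in the long ones. In the 7 members that span at least 100 kb, the median difference from the 13 other libraries was -1.49 in LFC replicate 5, -1.13 in HFC replicate 13 and -1.34 in HFC replicate 14 on the log2 scale. In the 17 shorter members it was 0.09, -0.25 and 0.15. All 1971 genes of that span had medians of -0.73, -0.48 and -0.29 in the same libraries. Spearman's rho of span with this difference was -0.35, -0.35 and -0.23 over the 24 members. Over all 11433 genes with a span it was -0.48, -0.49 and -0.37. It is given as a description over genes that share the library. HFC replicate 15, kept among the 13 other libraries, had a rho of -0.38 over the members and -0.33 over all genes. Its medians were -0.47 in the long members, 0.00 in the shorter ones and -0.18 in all genes of the long span.

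Some members went against the pattern. KCNQ1, which spans 314 kb, was above its median of the other libraries in LFC replicate 5 and HFC replicates 13 and 14. In the same libraries KCNA5 at 1.80 kb and KCNK6 at 7.99 kb were below theirs. What lies behind the relation to span was not tested.

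**Figure D5:**
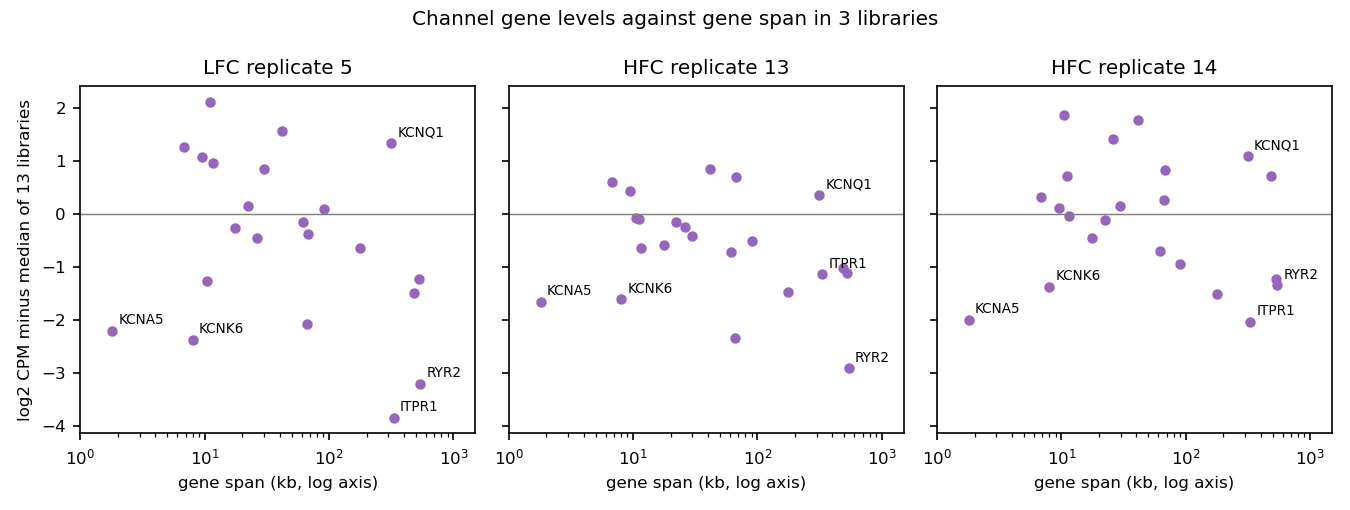
Each point is 1 of 22 members, with its gene span in kb on a log axis against log2 CPM minus its median of the 13 other libraries, in LFC replicate 5, HFC replicate 13 and HFC replicate 14. RYR2 and ITPR1 lie far below 0 and KCNQ1 above it, while the short KCNA5 and KCNK6 also lie below 0.

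Genes that work with the channels were taken from a list of 60 chosen by role: calcium pumps and exchangers, store-operated entry, mitochondrial uptake, pacemaker and leak channels, phospholipases and scaffolds. Of these 53 matched a single gene identifier in the tables used and 50 were tested. Left out was 1 symbol with more than 1 identifier. None was called (edgeR), while 5 (10%) had an unadjusted p under 0.05, all higher in HFC, and the median log2 fold change was -0.05. Over all genes tested the share under that p was 5.82%, made up of 4.29% higher and 1.53% lower in HFC. ATP2A1, the calcium pump of fast skeletal muscle, had a log2 fold change of 7.27 that fell to 0.04 without LFC replicate 5 and HFC replicate 14, and JPH1, a junction protein of muscle, moved from 1.14 to -0.09. ANO1, a calcium-activated chloride channel, was at 1.66 and CLCN2, a chloride channel, at 0.73. They were at 1.73 and 0.90 without the pair. ANO1 was at 4.33, 2.93 and 2.90 log2 CPM in HFC replicates 11, 14 and 16. It was at most 1.09 in the other HFC libraries and at most 1.95 in LFC. CLCN2 was highest in HFC replicates 16 and 11, at 4.01 and 3.23, and next in LFC replicate 5, at 3.12. The study listed ANO1 and CLCN2 among its differentially expressed genes from these libraries, whereas neither was called here.

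Of the store-operated entry genes STIM1 and STIM2, the sensors, had log2 fold changes of -0.10 and -0.03, and ORAI1, ORAI2 and ORAI3, the pores, of 0.17, -0.04 and 0.20. ATP2A2, the main reticulum pump of most tissues, was at -0.09. None of these 6 passed at an unadjusted p of 0.05.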

How the data were processed

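Pituitary poly(A) RNA of 8 LFC and 8 HFC gilts was sequenced, 1 library per gilt. The authors deposited counts per gene, whole numbers with 1 column per library, made against Sscrofa11.1; the submitters' processing notes name FastQC, STAR, RSEM and DESeq2. The kit keeps no strand, so counts of overlapping genes are uncertain, and 7 members overlap another gene of the table (CACNB3, KCNAB2, KCNAB3, KCNH3, SCNN1D, ITPR3 and KCNK6). The deposited comparison table, with the authors' means, folds and p-values, was used only for symbols and coordinates.

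Members and lists were chosen with earlier results of these data known. Counts were fitted with edgeR 4.0.16 in R 4.3.3 (glmQLFit, glmQLFTest, TMM scaling, filterByExpr; 14319 genes tested, 11561 removed), with no covariate, and adjusted over all genes tested. All 24 members were tested. Exact permutation tests, two-sided, ran over all assignments of 8 of 16 libraries on log2 CPM. Alternatives were DESeq2 1.42.0, limma-voom 3.58.1, other scalings and filters, and libraries left out. Levels rest on 10.97 to 23.06 M counts per library. Labels do not tie libraries to farms, so p-values measure the spread between these gilts.

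The rule named every ryanodine and inositol trisphosphate receptor, the 2 most abundant members of each class, up to 12 members with the smallest unadjusted p under 0.05, the 3 highest and 3 lowest log2 fold changes and the 3 largest SDs. It named 21 members. CACNA2D1, CACNA1G and KCNH3 were added. Values of some genes are not reported here, though counts, medians and class means include them.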

Additional observations from a re-analysis of the deposited data

Results flagged for a closer look

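A library was set apart when its gap to the nearest of the other 7 in its group was a larger share of the group's range than Dixon's 95% critical value for 8 samples. Of 54 such checks on named members and class means 13 were found, where independent checks would give about 2.7, or 1 in 20. The checks share libraries, the class means are built from members, and some members were named for a large SD or fold. The 2 numbers therefore cannot be compared as counts of separate trials. LFC replicate 5 gave 10 of them. It was low in ITPR1 (3.66 log2 CPM, the other 7 LFC libraries 7.05 to 8.41), RYR2 (1.37, others 3.86 to 4.86), ITPR3 (2.42, others 3.83 to 4.98), ITPR2 (4.03, others 5.03 to 5.56), KCNA5 (2.31, others 4.15 to 5.0) and KCNK6 (-0.04, others 1.78 to 2.91), and in the class mean of the inositol trisphosphate receptors (3.37, others 5.30 to 6.13). It was high in KCNAB3 (4.81, others 3.62 to 4.11), SCNN1D (1.02, others -0.68 to -0.06) and the epithelial sodium channel class mean (3.90, others 2.49 to 3.03).

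HFC replicate 14 gave 2. It was high in CACNB1 (6.68 log2 CPM, the other 7 HFC libraries 4.89 to 5.61) and KCNQ1 (4.03, others 2.74 to 3.35). HFC replicate 12 gave 1, the class mean of the auxiliary potassium subunits (4.20, others 3.42 to 3.75).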

How the results depend on the processing

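Of the single-gene estimates for 19 of the members that the rule named, 465 kept their direction and 25 reversed over all alternatives. No alternative called a member, and the share of all genes called was counted only in the edgeR fits of 16 and 14 libraries. The count of members at an unadjusted p under 0.05 was 2 of 24 (8.33%) in the report. It was 1 with RLE scaling, 1 with at least 10 counts in every library (KCNJ2 is then not tested) and 1 with limma-voom and library weights. When single libraries were left out it was 1 to 4 (4 without HFC replicate 12). The share over all genes was not counted in these fits. With channel symbols from any table, a larger set, it was 7 of 95 tested (7.37%), beside 5.82% of all genes tested. The count among genes that work with the channels, 5 in the report, was 3 with limma-voom. It was 8 without LFC replicate 5 and HFC replicate 14, where the share over all genes also rose, from 5.82% to 8.23%. When single libraries were left out it was 2 to 10 (10 without LFC replicate 5, 2 without LFC replicate 3, 4 or 6 or HFC replicate 16). The share over all genes was not counted for limma-voom or the single-library fits, so those counts have no background beside them. Log2 fold changes that reversed were CACNB1, at -0.149 without LFC 5 and HFC 14, -0.119 without these and HFC 13, and -0.088 to 0.272 with single libraries left out; CACNB3, at 0.012 without all 3; KCNAB3, -0.236 to 0.002 with single libraries left out; KCNQ1, at 0.010 with total counts, 0.044 with limma-voom, 0.039 with library weights, 0.037 without LFC 5 and HFC 14, and -0.188 to 0.198 with single libraries left out; KCNJ8, at 0.203 with library weights; RYR2, at -0.005 with limma-voom, -0.036 without LFC 5 and HFC 14, and -0.138 to 0.188 with single libraries left out; and KCNK6, -0.368 to 0.011 with single libraries left out. For all of these the cause was not tested. The 13-library fit and the symbols from any table were chosen after seeing the data. No paired analysis was possible because the labels give no pairs and the gilts were unrelated. Counts of 6 to 58 limit KCNJ2, 7 to 20 SCNN1D and 9 to 53 CACNA1G.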

Other observations

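The 110 channel genes named by another table were not members. With the members, 95 of 134 were tested, and 7 (7.37%) had an unadjusted edgeR p under 0.05 beside 5.82% of all genes tested, with 0 called. The 5 outside the rule, named after their values were seen, were KCNG1, KCNF1, KCNH6, KCNJ5 and SCN4A. KCNG1, a modifying potassium subunit, had a log2 fold change of 3.30 with HFC replicates 16 and 11 at 6.04 and 3.75 log2 CPM and every LFC library at most 0.91. KCNJ5, a G-protein-gated inward rectifier, ran from 6.51 to 8.33 log2 CPM in LFC and from 5.14 to 7.66 in HFC, with a log2 fold change of -0.79 that was -0.94 without LFC replicate 5 and HFC replicate 14. KCNF1 and KCNH6, further potassium subunits, were at -0.87 and -0.66. SCN4A, the skeletal muscle sodium channel, was at 3.44 with HFC replicate 14 in the fit and at 0.16 without LFC replicate 5 and HFC replicate 14.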
